A study of Mus musculus with 17 samples.

Results

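The transcripts of 9 complement components (C1qa, C1qb, C1qc, C1ra, C1s1, C4b, C2, C3 and Cfb) were followed in the mouse diaphragm, the main muscle of breathing. They were taken by symbol from a table of 47643 gene symbols, and all 9 were among the 13305 genes abundant enough to be tested. The tissue came from 17 mice (C57BL/6J, male, aged 4 months) in 4 groups, and its RNA had been sequenced. Control mice (n = 5) bore no tumor and received mock injections into the peritoneal cavity, and Control + rFibcd1 mice (n = 5) bore no tumor and received rFibcd1 by the same route. LLC mice (n = 3) carried tumors and received mock injections, and LLC + rFibcd1 mice (n = 4) carried tumors and received rFibcd1. The tumors grew from Lewis lung carcinoma cells, a mouse line, placed under the skin of both flanks, so all tumor-bearing mice share a single source of tumor cells. rFibcd1 is the C-terminal part of mouse Fibcd1, a protein with a fibrinogen-like domain, made in insect cells with a baculovirus, and the mock injections held its vehicle (PBS with BSA). The comparisons ask what the tumor does to the muscle transcriptome and whether rFibcd1 limits it.

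Complement is a cascade of plasma proteins that marks microbes, immune complexes and dying cells for removal. In the classical pathway C1q recognises the target, the proteases C1r and C1s bound to it cut C4 and C2, and the product of these cuts splits C3. In the alternative pathway factor B takes the place of C2. Most of these proteins in blood come from the liver, whereas C1q is made mainly by macrophages and related myeloid cells, and fibroblasts and endothelium also make C1r, C1s, C3 and factor B.

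The genes lie on 3 chromosomes (GRCm38, GENCODE vM21). C1qa (chr4:136895917-136898803), C1qc (chr4:136889804-136893065) and C1qb (chr4:136880129-136886187) form a cluster on the minus strand of chromosome 4. C1ra (chr6:124512405-124523443, plus strand) and C1s1 (chr6:124530345-124542359, minus strand) are neighbours 6901 bases apart on chromosome 6. On chromosome 17, C4b (chr17:34728380-34743882), Cfb (chr17:34856374-34862518) and C2 (chr17:34862604-34898265) lie on the minus strand of the major histocompatibility region, with 85 bases between Cfb and C2, and C3 (chr17:57203970-57228136, minus strand) lies apart from them. Several of these values can hold reads of another gene. The annotated transcript Gm20547 runs through Cfb and C2 on their strand, Zbtb12 overlaps C2 and Gm16567 overlaps C1s1 on the opposite strand, and the strand setting of the counting was not given in the sources used here. C4b, C1ra and C1s1 also have near-identical copies, of which C4a reached at most 2.22 TPM and C1rb at most 0.197 TPM in any mouse, while C1s2 was not analysed here. How reads were divided between these genes is unknown.

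RefSeq (GRCm38.p6) gave promoters, 250 bases before to 50 bases after the annotated start, for 5 of the 9 genes: C1qb, C1qc, C1ra, C1s1 and C3. They were searched on both strands for 6 short motifs. These were TTCNNNGAA (the GAS element read by STAT factors, its own reverse complement), GAAANNGAA (the core of the interferon response element), GGGANTTTC (NF-kB), TATAAA (the TATA box), TGACGTCA (CREB) and GAGGAAGT (PU.1, a factor of myeloid cells). No motif overlapped another in these promoters. The promoters of C1qb and C1qc are shown because these neighbours kept a nearly fixed ratio, and those of C1ra and C3 because they held a match. Capitals mark the match.
C1qb (chr4:136886151-136886450, minus strand): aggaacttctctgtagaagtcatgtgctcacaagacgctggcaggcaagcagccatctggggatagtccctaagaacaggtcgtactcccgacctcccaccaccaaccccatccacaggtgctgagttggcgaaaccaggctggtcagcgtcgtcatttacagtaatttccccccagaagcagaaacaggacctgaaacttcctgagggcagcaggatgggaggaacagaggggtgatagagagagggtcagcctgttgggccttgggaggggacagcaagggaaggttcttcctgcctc
C1qc (chr4:136892865-136893164, minus strand): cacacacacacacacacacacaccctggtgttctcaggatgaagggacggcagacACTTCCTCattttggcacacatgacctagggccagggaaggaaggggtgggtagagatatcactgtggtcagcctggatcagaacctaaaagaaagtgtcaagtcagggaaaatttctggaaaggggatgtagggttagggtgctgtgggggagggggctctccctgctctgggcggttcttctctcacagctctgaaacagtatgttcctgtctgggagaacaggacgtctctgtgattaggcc
C1ra (chr6:124512371-124512670, plus strand): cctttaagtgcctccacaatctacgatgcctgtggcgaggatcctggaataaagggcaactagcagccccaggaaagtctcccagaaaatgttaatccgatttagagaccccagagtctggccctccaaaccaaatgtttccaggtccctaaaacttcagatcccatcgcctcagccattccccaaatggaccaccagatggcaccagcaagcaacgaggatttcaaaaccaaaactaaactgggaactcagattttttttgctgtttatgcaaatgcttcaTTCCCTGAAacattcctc
C3 (chr17:57228087-57228386, minus strand): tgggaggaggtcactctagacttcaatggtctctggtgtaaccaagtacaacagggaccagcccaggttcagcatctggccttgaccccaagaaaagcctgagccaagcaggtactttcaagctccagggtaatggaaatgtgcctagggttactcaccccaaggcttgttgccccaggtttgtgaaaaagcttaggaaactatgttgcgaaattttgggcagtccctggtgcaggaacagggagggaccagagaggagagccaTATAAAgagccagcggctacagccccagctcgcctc

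C1qc held the GAGGAAGT motif on the opposite strand at position -195 from the start, C1ra held TTCNNNGAA at position 33, and C3 held TATAAA at position 15. The promoters of C1qb and C1s1 held no match. Over the 32851 promoters of the table, GAGGAAGT was found in 3.2%, TTCNNNGAA in 8.3%, TATAAA in 13.6%, GAAANNGAA in 8.56%, GGGANTTTC in 1.11% and TGACGTCA in 1.79%. Over the 12582 promoters of tested genes, the set to which the 9 genes belong, the shares were 3.12%, 6.99%, 7.74%, 7.33%, 0.922% and 2.85% in the same order. A match describes the letters only, and so does its absence.

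The depth recovered from the steps of the low values was 50.7 to 54.5 M reads per mouse (M, 1000000), and the lowest value of any of the 9 genes (C2 in Control + rFibcd1 4) rested on about 407 reads. Levels were given in TPM (transcripts per 1000000), which corrects for transcript length, so that different genes can be set beside each other. Mitochondrially encoded transcripts held 45.9% to 48.4% of TPM in Control and 41.3% to 44.3% in LLC mice, and they are part of the sum to which TPM is scaled. The 8 myofiber markers, which check the labelled tissue, summed to 30206 to 38356 TPM. Hepatocyte markers (6 genes) summed to 3406 TPM in Control + rFibcd1 2, 345 TPM in Control 4 and 344 TPM in LLC + rFibcd1 4, and to at most 64.3 TPM in the other mice. Values with and without these 3 mice are given below.

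C3, the protein on which all complement pathways converge, was the most abundant of the 9 transcripts in 17 of 17 mice, at 2.46 to 5.19 times the level of C1qb. In Control it averaged 224 ± 56.1 TPM (SD, n = 5), and 363 of the 13305 tested genes were higher. C1s1 at 66.5 ± 11.3 TPM (SD, n = 5), C1qa at 61.0 ± 16.9 TPM (SD, n = 5) and C1qb at 59.0 ± 16.4 TPM (SD, n = 5) followed in Control. C1ra averaged 36.5 ± 8.17 TPM (SD, n = 5), C1qc 31.0 ± 7.60 TPM (SD, n = 5) and C4b 29.7 ± 13.3 TPM (SD, n = 5). Cfb at 14.6 ± 4.06 TPM (SD, n = 5) and C2 at 12.5 ± 4.39 TPM (SD, n = 5), homologous proteases of the alternative and classical C3 convertases, were the least abundant. Below C3 the order was not fixed among neighbours: C1qb exceeded C1qa in 8 of 17 mice, C1qa exceeded C1s1 in 9 and C4b exceeded C1ra in 10. C1s1 exceeded C4b, C1qc exceeded Cfb and Cfb exceeded C2 in 16 of 17 mice each.

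**Figure D1:**
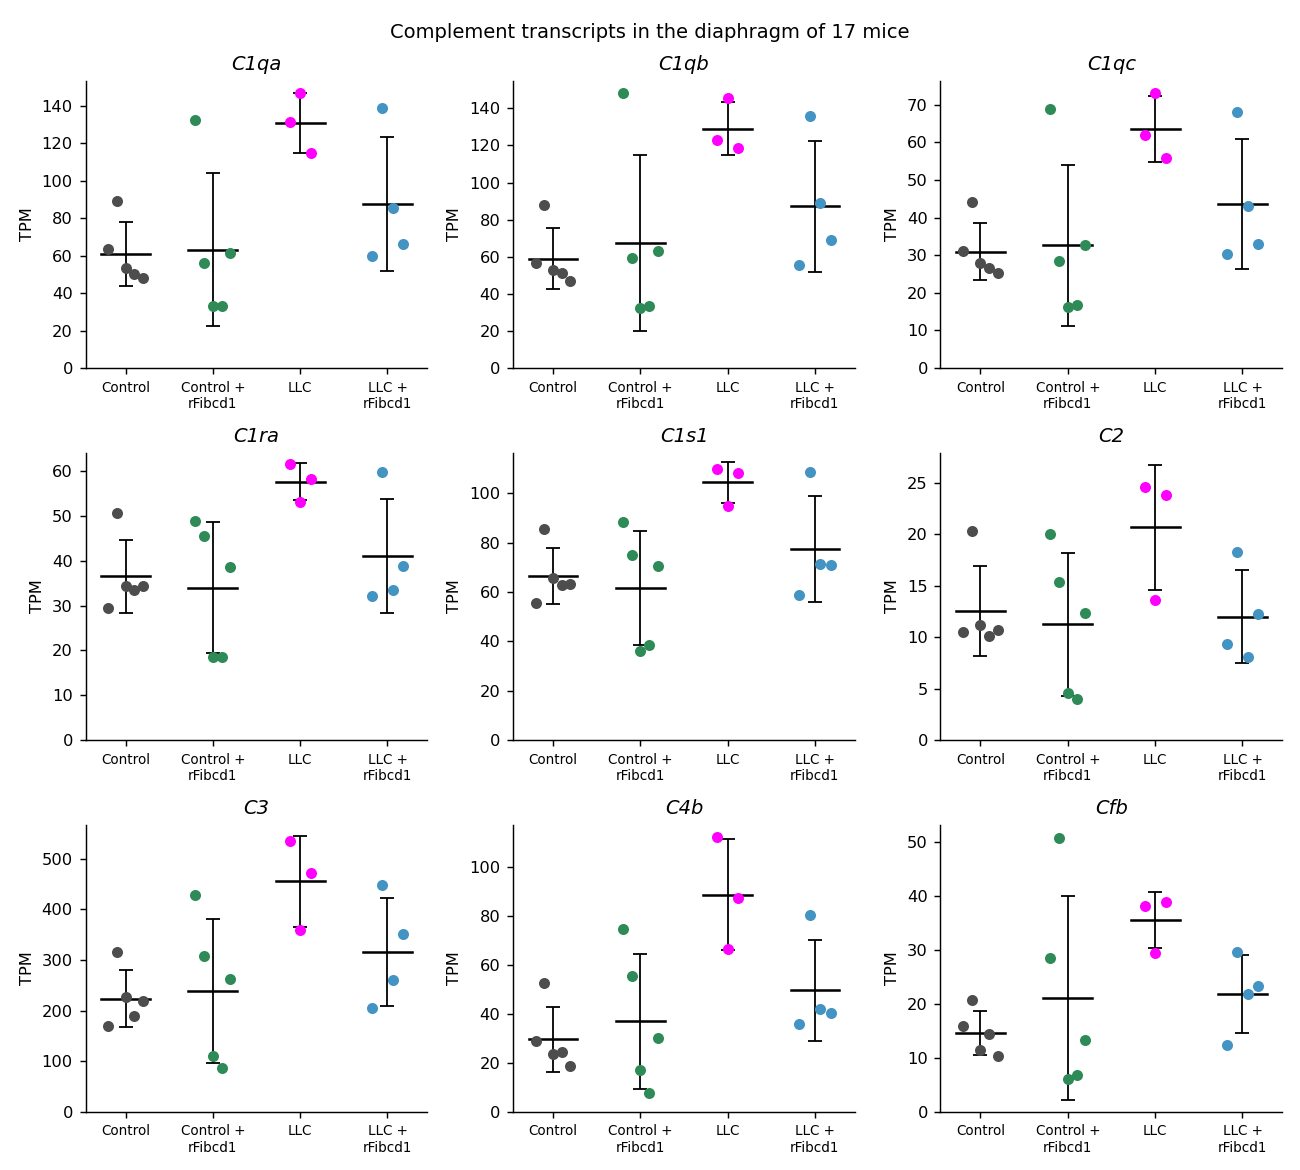
TPM of the 9 complement transcripts (vertical axis, linear, from 0) in each mouse of the 4 groups; points are mice, horizontal bars are group means and error bars are SD. The 3 LLC mice lie above all 5 Control mice for 8 of the 9 genes, all but C2, and LLC + rFibcd1 2 lies with the LLC mice in every panel.

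The C1q chains kept their proportions among themselves, and so did C1ra with C1s1. Of the summed TPM of the C1q chains, which assemble in equal numbers, C1qa made up 37.9% to 42.1%, C1qb 37.3% to 42.4% and C1qc 19.3% to 21.1% over the 17 mice, while the level of C1qa itself varied from 33.3 to 147 TPM. C1s1 stood at 1.65 to 2.12 times C1ra in all mice, whereas C1qa stood at 0.748 to 1.54 times C1s1. On the log2 scale the C1q chains correlated with each other at r = 0.99 to 1.00 over 17 mice and C1ra with C1s1 at 0.99, while C1qa correlated with C1ra at 0.89, against a median of 0.90 over all 36 pairs of the 9 genes and a lowest value of 0.78 (C1qc with Cfb). The proportion of C4b to C2, which act together, was not fixed in this way: C4b stood at 1.76 to 2.76 times C2 in Control, 1.91 to 3.72 times in Control + rFibcd1, 3.68 to 4.89 times in LLC and 3.29 to 5.18 times in LLC + rFibcd1, so that the ratio in tumor-bearing mice did not overlap that in Control. C3 stood at 5.85 to 11.6 times C4b in Control, 5.55 to 11.5 times in Control + rFibcd1, 4.77 to 5.39 times in LLC and 5.57 to 8.68 times in LLC + rFibcd1, and only the ratio in LLC did not overlap that in Control. These ratios were not tested. The correlations are descriptions, since all pairs share the same libraries and differences between groups.

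**Figure D2:**
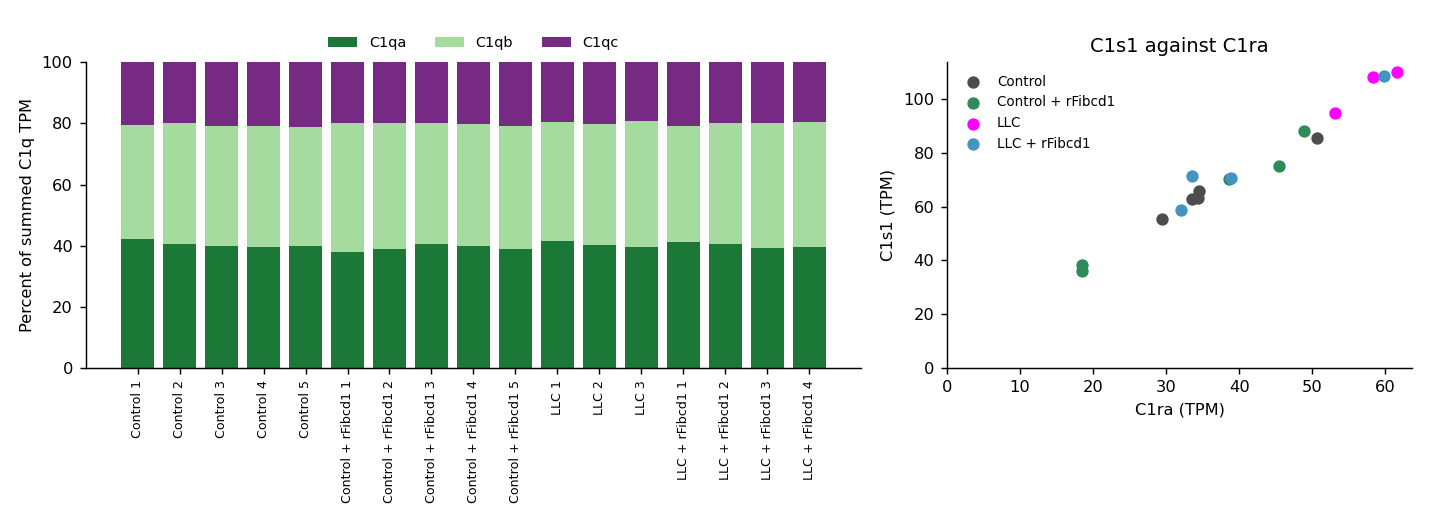
Left, share of the summed C1q TPM (percent) taken by C1qa, C1qb and C1qc in each of the 17 mice; right, C1s1 against C1ra in TPM, with each point a mouse coloured by group. The shares stay within 37.3% to 42.4% for the first pair of chains and 19.3% to 21.1% for C1qc, and C1s1 rises with C1ra at a ratio of 1.65 to 2.12.

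In the diaphragm of LLC mice, the 3 C1q chains and C4b were higher than in Control (limma on log2(TPM + 1), adjusted over all genes), at 2.05 to 3.05 times the Control level, and none of the 9 genes was lower. These 4 of 9 are to be read against the 35.8% of all tested genes that passed in this comparison (29.7% higher), so the share called was near that of all genes. The size of the differences stood apart from most genes. The median log2 fold change was 1.04 over the 9 genes and 0.16 over all 13305 genes, and relative to the latter C1qa stood at 0.96 and C4b at 1.45. Without overlap, the 3 LLC mice lay above the 5 Control mice for 8 of 9 genes, against 40.2% of all genes without overlap in either direction and 33.6% in this direction. At an unadjusted cutoff (p under 0.05 and a change of more than 1.5-fold), 8 of 9 passed, all but C2, against 12.7% of all genes. The same 8 were under 0.05 before adjustment, as were 48.3% of all genes. The 9 genes moved together over the mice (median r = 0.90 over their 36 pairs) and were chosen with earlier results known. These counts are therefore not of independent genes. Whether more cells made these transcripts or each cell held more of them cannot be told apart in bulk tissue.

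C1qa, which encodes the A chain of the recognition molecule C1q, stood at 63.6, 89.3, 53.5, 50.4 and 48.0 TPM in the Control mice and 131, 147 and 115 TPM in the LLC mice. The lowest LLC mouse lay above the highest Control mouse, Control 2. The log2 fold change was 1.12 (SE 0.38, adjusted p = 0.0336), with a 95% interval of 0.31 to 1.93. C1qb, the B chain, stood at 56.4, 87.7, 53.0, 51.0 and 47.0 TPM in Control and 123, 145 and 119 TPM in LLC, again with Control 2 the highest Control mouse and no overlap. Its log2 fold change was 1.15 (SE 0.40, adjusted p = 0.0386). C1qc, the C chain, stood at 31.1, 44.0, 27.8, 26.5 and 25.3 TPM in Control and 61.8, 73.2 and 55.9 TPM in LLC, with the mice in the same order in LLC as for C1qa and a log2 fold change of 1.04 (SE 0.37, adjusted p = 0.0435).

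C1ra and C1s1 encode the proteases that C1q activates. C1ra stood at 29.5, 50.7, 34.5, 33.6 and 34.4 TPM in Control and 61.5, 53.2 and 58.3 TPM in LLC. C1s1 stood at 55.3, 85.6, 65.6, 62.8 and 63.3 TPM in Control and 109.9, 94.95 and 108 TPM in LLC. Control 2 was the highest Control mouse for both. The groups did not overlap for either gene, but neither passed the adjusted threshold. The log2 fold change was 0.67 (SE 0.31, adjusted p = 0.0989) for C1ra and 0.65 (SE 0.27, adjusted p = 0.0670) for C1s1, below that of the C1q chains in size.

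C4b, the mouse C4 that C1s cuts, had the largest difference of the 9. It stood at 28.9, 52.7, 23.5, 24.5 and 18.8 TPM in Control and 112, 66.7 and 87.6 TPM in LLC, with no overlap and LLC 1 the highest. The log2 fold change was 1.61 (SE 0.56, adjusted p = 0.0365), and its 95% interval of 0.43 to 2.79 was wide. C2, the protease that joins C4b in the C3 convertase, stood at 10.5, 20.4, 11.2, 10.1 and 10.6 TPM in Control and 24.6, 13.6 and 23.8 TPM in LLC. Here LLC 2 fell below Control 2, so the groups overlapped, and the log2 fold change of 0.68 (SE 0.43, adjusted p = 0.220) passed no threshold.

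C3 stood at 169, 315, 226, 190.0 and 218 TPM in Control and 535, 359 and 472 TPM in LLC. All LLC mice were above all Control mice, LLC 2 by the smallest margin over Control 2, and the log2 fold change of 1.04 (SE 0.43, adjusted p = 0.0723) was as large as that of C1qc without passing. Cfb, factor B of the alternative pathway, stood at 16.0, 20.6, 11.5, 14.4 and 10.4 TPM in Control and 38.2, 29.5 and 38.9 TPM in LLC. The groups did not overlap, and the log2 fold change of 1.26 (SE 0.52, adjusted p = 0.0686) did not pass the adjusted threshold.

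The 4 calls changed when single mice were left out. Leaving out single mice left between 0 and 6 calls: 0 without Control 3, Control 4, Control 5, LLC 1 or LLC 3, 1 without Control 1 or LLC 2, and 6 without Control + rFibcd1 1 or Control + rFibcd1 3, which enter only through the shared spread. The calls over all genes moved too, from 4759 to 24 without LLC 3, 2272 without LLC 1, 4934 without LLC 2, 4185 without Control 1, and 3522, 3470 and 3264 without Control 3, Control 4 and Control 5. The count past the unadjusted cutoff fell from 8 to 5 without Control 1 and to 4 without LLC 1 or LLC 3, where 13.2%, 11.4% and 9.49% of all genes passed it in turn. A fit of only the 2 groups called 8 and 39.3% of all genes, and Dunn's rank test called 0 of the 9 and 0 of all genes. Without the 3 mice with hepatocyte markers, an alternative chosen after the data were seen, 3102 of all genes and 0 of the 9 passed, with adjusted p = 0.0716 for C4b, 0.0838 for C1qa, 0.0916 for C1qb and 0.1002 for C1qc. The log2 fold changes moved little: that of C1qa lay between 1.04 and 1.27 and that of C4b between 1.43 and 1.83 when any single mouse was left out. TPM rescaled without the mitochondrially encoded genes left 2 calls, C1qa and C4b.

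**Figure D3:**
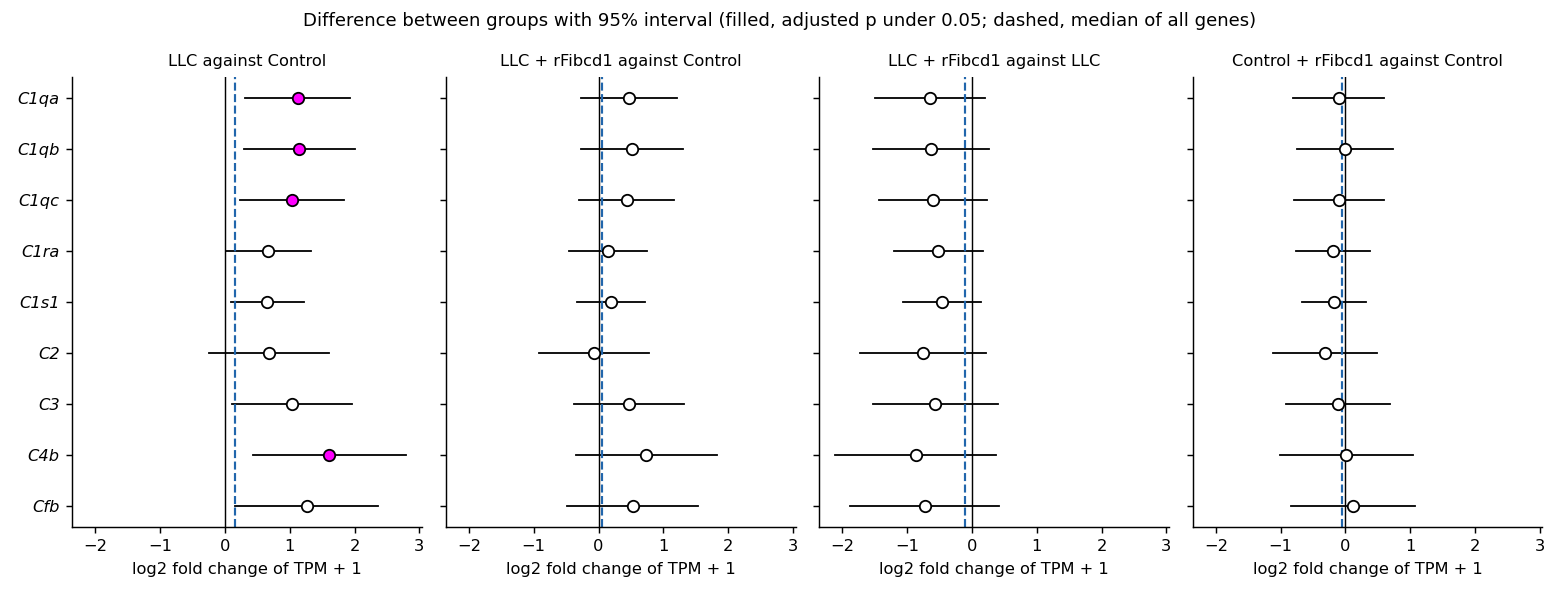
Log2 fold change of TPM + 1 (horizontal axis) of the 9 genes in 4 comparisons, with points at the estimate, lines for the 95% interval, filled points for an adjusted p under 0.05 and a dashed line at the median of all 13305 tested genes. Filled points occur only for LLC against Control (C1qa, C1qb, C1qc and C4b), and all 9 points lie below 0 for LLC + rFibcd1 against LLC, with intervals that cover 0.

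Over all tumor-bearing mice against all tumor-free mice (7 against 10, in the same fit), 6 of 9 genes were higher, against 44.8% of all genes called and 38.8% called higher. These were C1qa (0.80 on the log2 scale, adjusted p = 0.0207), C1qb (0.79, adjusted p = 0.0289), C1qc (0.74, adjusted p = 0.0277), C1s1 (0.48, adjusted p = 0.0415), C3 (0.77, adjusted p = 0.0439) and C4b (1.11, adjusted p = 0.0271). C1ra (0.47, adjusted p = 0.0794), Cfb (0.78, adjusted p = 0.0797) and C2 (0.41, adjusted p = 0.259) did not pass. The 2 sets of mice overlapped for all 9 genes, while 2.26% of all tested genes did not overlap. Without LLC 1 the count was 0, and without LLC 2 or LLC 3 it was 1. The calls over all genes went from 5963 to 4602, 5469 and 4160 in the same order. Without the 3 mice with hepatocyte markers, Cfb passed (1.02, adjusted p = 0.0241). C1qb (0.86, adjusted p = 0.0510) and C3 (0.83, adjusted p = 0.0653) then did not. C1qa, C1qc, C1s1 and C4b still passed, C1ra and C2 still did not, and 5625 of all genes were called.

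In tumor-bearing mice given rFibcd1, all 9 genes had a lower mean than in LLC mice given mock injections, and none passed a threshold. The log2 fold changes for LLC + rFibcd1 against LLC ran from -0.87 (C4b) to -0.46 (C1s1), with a median of -0.63 against -0.11 for all genes. limma called 0 of 9, where 0.113% of all genes were called, and 0 of 9 were under 0.05 before adjustment, against 22.7% of all genes. With the fold cutoff as well, 0 of 9 passed, against 4.09% of all genes, and Dunn's test called 0. No gene of the 9 was without overlap, against 14.6% of all genes in either direction and 9.3% lower.

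C1qa stood at 59.7, 139, 85.4 and 66.2 TPM in the 4 LLC + rFibcd1 mice, C4b at 35.9, 80.4, 41.9 and 40.4 TPM and C3 at 205, 448, 259.7 and 350.5 TPM. In all 3 the second mouse stood with the LLC mice. LLC + rFibcd1 2 was the highest of its group for 9 of 9 genes and at or above the lowest LLC mouse for 9 of 9, whereas the other 3 mice reached the lowest LLC mouse for 0 of 9. LLC + rFibcd1 1 was the lowest of its group for 8 of 9 genes.

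The intervals of this comparison were wide. For C1qa the log2 fold change of -0.65 (SE 0.40, adjusted p = 0.299) had a 95% interval of -1.49 to 0.20, and for C4b that of -0.87 (SE 0.58, adjusted p = 0.334) had one of -2.11 to 0.37. C3 stood at -0.57 (SE 0.45, adjusted p = 0.408) and Cfb at -0.73 (SE 0.54, adjusted p = 0.377) on that scale, with intervals of -1.53 to 0.40 and -1.88 to 0.42. C2 stood at 9.37, 18.3, 8.10 and 12.3 TPM and Cfb at 12.4, 29.7, 21.9 and 23.4 TPM, so that 2 of these mice lay within the Control range of C2 and 2 below it. Without LLC + rFibcd1 2, the log2 fold change of C1qa was -0.89 and that of C4b -1.12, 0 of 9 passed the adjusted threshold and 3 of 9 passed the unadjusted cutoff, where 6.61% of all genes did.

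Between LLC + rFibcd1 and Control no difference in the 9 genes passed, with log2 fold changes from -0.071 (C2) to 0.74 (C4b) and a 95% interval of -0.27 to 1.21 for C1qa and -0.35 to 1.83 for C4b. limma called 0 of 9 where 3.08% of all genes were called, 0 of 9 had an unadjusted p under 0.05 where 19.9% of all genes did, and 0 of 9 passed the unadjusted cutoff where 1.65% did. These comparisons share their Control and LLC mice, so they are not independent of each other. The interaction of tumor and rFibcd1, which asks whether rFibcd1 acted differently in tumor-bearing and tumor-free mice, was negative for all 9, from -0.88 for C4b to -0.28 for C1s1, and its 95% interval for C1qa was -1.64 to 0.55. None of the 9 passed in limma, nor did any other gene (0%), and 0 of 9 had an unadjusted p under 0.05, against 8.58% of all genes.

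In tumor-free mice given rFibcd1, the 9 genes were widely spread and their means on the log2 scale lay near those of Control. In TPM the mean of Cfb was 21.1 against 14.6 in Control, with Control + rFibcd1 2 at 50.8 TPM. That of C4b was 36.9 against 29.7 TPM. C1qa stood at 132, 56.0, 33.4, 33.3 and 61.3 TPM in Control + rFibcd1 mice, Cfb at 28.5, 50.8, 6.11, 6.79 and 13.3 TPM and C4b at 74.6, 55.4, 17.1, 7.54 and 30.1 TPM. Control + rFibcd1 1 was the highest of its group for 8 of 9 genes and above every Control mouse for 7, while Control + rFibcd1 3 and Control + rFibcd1 4 lay below every Control mouse for 9 of 9. C1s1 ranged from 36.1 to 88.3 TPM and C3 from 87.0 to 429 TPM in the same mice. The summed level of the 9 genes varied 4.23-fold in this group, 1.67-fold in Control, 1.22-fold in LLC and 2.18-fold in LLC + rFibcd1. No test of the spread was run. The log2 fold changes against Control ran from -0.32 (C2) to 0.12 (Cfb), limma called 0 of 9 and 0% of all genes, and 0 of 9 had an unadjusted p under 0.05, against 4.39% of all genes. The unadjusted cutoff passed 0 of 9 and 0.0601% of all genes. With single mice left out, C1qa ranged from -0.42 to 0.073, so not even the sign was fixed.

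Of the other complement genes, 49 were listed by role, 47 were in the table and 35 were tested. In LLC mice 6 of the 35 were higher and 1 was lower, against the 35.8% called among all genes, with a median log2 fold change of 0.38. In this comparison 48.3% of all genes had an unadjusted p under 0.05. Of 8 other recognition proteins and proteases 0 passed in limma and 2 had an unadjusted p under 0.05. Fcna had the largest log2 fold change of the 35, 2.09 (SE 0.84, adjusted p = 0.0646), without passing. Of 7 terminal pathway genes, whose products form the membrane attack complex, 0 passed and 0 had an unadjusted p under 0.05. Of these, Hc, C8a, C8b and C9 reached 1 TPM in only 3 mice, none of them LLC mice. They were tested because of those mice, so the comparison cannot show whether the tumor changed them. Mbl1 and Mbl2, at most 0.0448 and 0.0751 TPM in LLC, are limited in the same way. Dunn's test called 0 of the 35. In LLC + rFibcd1 against LLC 0 of 35 passed, and 6 of 35 had an unadjusted p under 0.05, where 22.7% of all genes did. In tumor-bearing against tumor-free mice 10 of 35 were higher, where 38.8% of all genes were. The 7 genes called in LLC against Control fell to 0 without LLC 3, to 3 without LLC 1 and to 4 without Control 3 or Control 5, and rose to 11 without Control + rFibcd1 1, while all genes went from 4759 calls to 24, 2272, 3522, 3264 and 5254 in the same order.

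In the alternative pathway, Cfp, which encodes properdin, the protein that stabilises the C3 convertase, averaged 17.3 ± 7.43 TPM (SD, n = 5) in Control and 45.9 ± 1.73 TPM (SD, n = 3) in LLC. It was higher in LLC, with a log2 fold change of 1.44 (SE 0.52, adjusted p = 0.0421). Cfd, the protease (adipsin) that activates factor B and is made by adipocytes, averaged 684 ± 569 TPM (SD, n = 5) and 2335 ± 1677 TPM (SD, n = 3), and its 1.93 (SE 0.79, adjusted p = 0.0663) did not pass. Adipocyte markers summed to 597 to 1772 TPM in Control and 1060 to 3928 TPM in LLC, with 0 of 6 called and 2 of 6 at an unadjusted p under 0.05, against 35.8% and 48.3% of all genes.

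Among regulators, Cd55, the decay-accelerating factor of the cell surface, rose from 7.73 ± 1.29 TPM (SD, n = 5) to 14.9 ± 0.856 TPM (SD, n = 3), a log2 fold change of 0.88 (SE 0.21, adjusted p = 0.0123). Clu, clusterin, rose by 1.26 (SE 0.46, adjusted p = 0.0451), with LLC 3 at 522 TPM and the lowest LLC mouse at 82.2 TPM, inside the Control range of 50.3 to 130.2 TPM. Without LLC 3 the value for Clu was 0.46 (adjusted p = 0.328). Cd59b, an inhibitor of the membrane attack complex, fell from 4.43 ± 0.222 TPM (SD, n = 5) to 3.26 ± 0.380 TPM (SD, n = 3), a log2 fold change of -0.35 (SE 0.089, adjusted p = 0.0132), and was the only one of the 35 called lower in this comparison. The other 7 regulators tested did not pass.

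Of 8 receptor genes tested, 3 were called higher, near the 29.7% of all genes called higher. Cr2, the complement receptor of B cells, averaged 0.850 ± 0.733 TPM (SD, n = 5) in Control and 4.87 ± 1.36 TPM (SD, n = 3) in LLC, with a log2 fold change of 1.74 (SE 0.49, adjusted p = 0.0179). Itgb2, the common chain of the receptors for inactivated C3b on myeloid cells, rose by 1.65 (SE 0.54, adjusted p = 0.0301), and its partner Itgax by 1.18 (SE 0.29, adjusted p = 0.0122). For Vsig4, the macrophage receptor for C3 fragments, the log2 fold change of 1.76 (SE 0.68, adjusted p = 0.0547) did not pass, and neither did those of the anaphylatoxin receptors, C3ar1 with 0.60 (SE 0.26, adjusted p = 0.0863) and C5ar1 with 0.59 (SE 0.24, adjusted p = 0.0682).

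**Figure D4:**
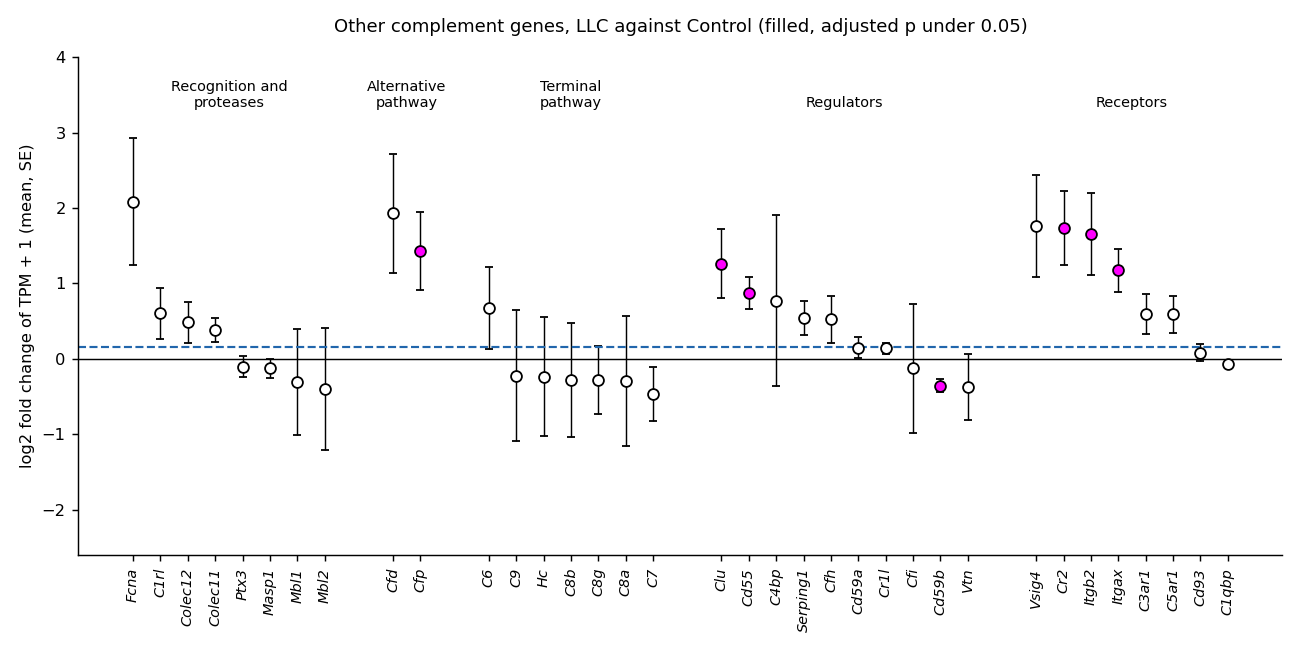
Log2 fold change of TPM + 1 in LLC against Control (vertical axis) for the 35 other complement genes tested, by role; error bars are SE, filled points have an adjusted p under 0.05 and the dashed line is the median of all tested genes, 0.16. Filled points above 0 are Cfp, Clu, Cd55, Cr2, Itgb2 and Itgax, and Cd59b is the filled point below 0.

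Terminal components made in the liver were highest in a mouse with hepatocyte markers. Hc (which encodes C5), C6, C8a, C8b, C8g and C9 were all highest in Control + rFibcd1 2, for example C9 at 26.3 TPM against at most 2.39 TPM in any other mouse, and Hc, C8a, C8b and C9 reached 1 TPM in only 3 mice. C6 reached 1 TPM in 5 mice. C8g, at 16.8 TPM there and at most 4.58 TPM in any other mouse, and C7, which fibroblasts make, were at 1 TPM or more in 17 of 17 mice. Cfb was also highest in Control + rFibcd1 2, at 50.8 TPM, while C1qa (56.0 TPM), C3 (308 TPM) and C2 (15.4 TPM) of that mouse lay inside the range of the rest. The share of liver RNA in Cfb was not tested.

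The counts of cell type markers stand beside 29.7% of all genes called higher in LLC than in Control. Of 10 macrophage markers 4 were higher in LLC than in Control (median log2 fold change 0.69), and their summed level was 275 to 519 TPM in Control, 201 to 1610 TPM in Control + rFibcd1, 804 to 898 TPM in LLC and 357 to 890 TPM in LLC + rFibcd1, with no marker at 0 in any mouse. Control + rFibcd1 1, the mouse with high C1q, had the sum of 1610 TPM, of which Lyz2 made up 1459 TPM. B cell markers were higher in 8 of 8 (249 to 317 TPM in LLC, 2.68 to 107 TPM in Control), T cell markers in 7 of 8 and neutrophil markers in 6 of 6 tested. Fibroblast markers were higher in 1 of 9 (815 to 1101 TPM in Control, 1177 to 1222 TPM in LLC) and hepatocyte markers in 0 of 6, with 0 at an unadjusted p under 0.05. Of the other lists, plasma cell markers were higher in 3 of 6, dendritic cell markers in 2 of 4 tested, endothelial markers in 2 of 8 and mesothelial markers in 0 of 7 (0 at an unadjusted p under 0.05), and 4 of 8 myofiber markers were lower, where 6.02% of all genes were.

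Across the 10 tumor-free mice, C1qa followed the macrophage score (the mean log2(TPM + 1) of the 10 markers) closely, with Pearson's r = 0.971 (permutation p = 9e-05, adjusted 0.00212), Spearman's rho = 0.855 (permutation p = 0.00275, adjusted 0.0176) and r = 0.918 without the 2 mice farthest from the median score. For C3 these were r = 0.909 (permutation p = 0.00018, adjusted 0.00212), rho = 0.915 (permutation p = 0.00046, adjusted 0.00544) and r = 0.911. C4b gave r = 0.847 (permutation p = 0.0034, adjusted 0.0218), rho = 0.915 (permutation p = 0.00051, adjusted 0.00544) and r = 0.859. For Cfb r was 0.666 (permutation p = 0.0372, adjusted 0.0957), rho 0.818 (permutation p = 0.0058, adjusted 0.0309) and r 0.509 without the 2 farthest mice. The tumor-free mice were unevenly spread on this score as well. Control + rFibcd1 3 and Control + rFibcd1 4 stood at 2.87 and 2.88, Control + rFibcd1 1 at 4.37 and the rest at 3.37 to 3.73. Each r rests partly on these mice, and leaving out the 2 farthest keeps Control + rFibcd1 4.

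The relation of Cfb to the hepatocyte score did not pass, with r = 0.486 (permutation p = 0.156, adjusted 0.217), rho = -0.042 (permutation p = 0.918, adjusted 0.918) and r = -0.463 without the 2 farthest mice. C1qa also followed the B cell score (r = 0.880, permutation p = 0.00036, adjusted 0.00288, rho = 0.867, permutation p = 0.00234, adjusted 0.0176, r = 0.903 without the 2 farthest), and its relation to the fibroblast score (r = 0.510, permutation p = 0.130, adjusted 0.199, rho = 0.20, permutation p = 0.5848, adjusted 0.674) did not pass and turned to r = -0.272 without the 2 farthest mice. For C3 the relation to the fibroblast score was r = 0.757 (permutation p = 0.0127, adjusted 0.0679) and rho = 0.442 (permutation p = 0.206, adjusted 0.329). It did not pass after adjustment either, and r was 0.166 without the 2 farthest mice. These relations are part of the 32 computed, with p-values adjusted over the 32. The 7 tumor-bearing mice fell into separate sets on the macrophage score (the 3 LLC mice and LLC + rFibcd1 2 against the other 3), so no r is given for them. They were split on the B cell score as well, with LLC + rFibcd1 1 and LLC + rFibcd1 4 at 1.48 and 1.70 and the other 5 at 3.68 to 4.86, and no r is given there either. LLC + rFibcd1 3 stood among the LLC mice on the B cell score (4.84) and below them for C1qa (85.4 TPM against 115 to 147 TPM). In LLC the macrophage score ran from 4.09 to 4.29, in LLC + rFibcd1 from 3.45 to 4.26, and the mouse at 4.26 is the one whose complement levels stood with the LLC mice.

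With the macrophage score as a covariate, 0 of 9 genes passed for LLC against Control, and the log2 fold change of C1qa was 0.16, that of C4b 0.41 and that of C3 0.083. With the B cell score 0 of 9 passed as well (0.22 for C1qa and 0.58 for C4b). Both scores differed between the groups themselves, and all genes lost calls in these fits, from 4759 to 19 and to 7, so the part of macrophages and the part of B cells in the complement differences were not told apart.

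**Figure D5:**
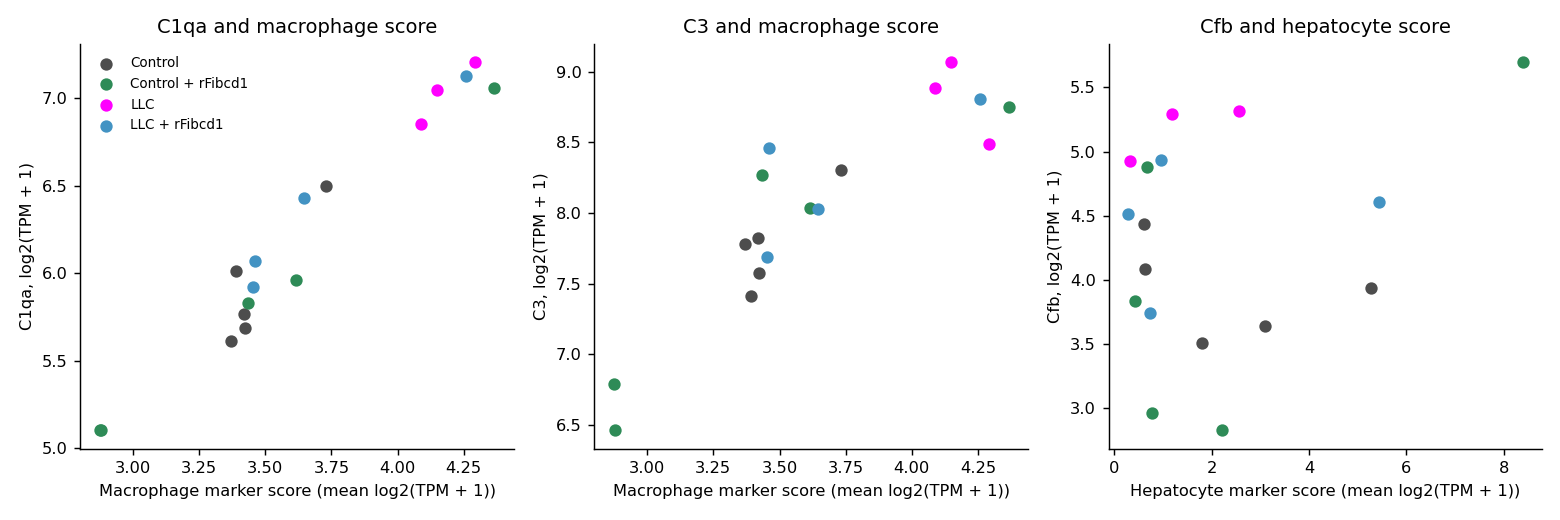
C1qa and C3 against the macrophage marker score and Cfb against the hepatocyte marker score, all as log2(TPM + 1), with each point a mouse coloured by group (the score is the mean over the markers). C1qa follows the macrophage score in tumor-free mice (r = 0.971), and Cfb is highest in Control + rFibcd1 2, the mouse at the far right of the hepatocyte axis.

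The genes whose levels were most like the mean of the C1q chains over the 17 mice, by Pearson's r of log2(TPM + 1), were Pltp (0.98), which encodes a phospholipid transfer protein, Man2b1 (0.98), a lysosomal mannosidase, Emp3 (0.98), Cd300ld (0.97), a receptor of myeloid cells, and Grn (0.97), progranulin. Most like the mean of the other 6 genes were Igfbp4 (0.98), which binds insulin-like growth factors, Smim1 (0.97), Dpp4 (0.96), a surface peptidase, Timp2 (0.96), an inhibitor of metalloproteinases, and Myof (0.96). Within groups, after the group means were removed, the values were 0.96 to 0.97 for the first set and 0.95 to 0.97 for the second.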

How the data were processed

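RNA from the muscle portion of the diaphragm, free of tendon, was sequenced from 17 mice. Per the labels and the study's methods, the authors trimmed and filtered the reads, aligned them to GRCm38 (mm10, as listed in the submitters' processing notes) in CLC Genomics Workbench and deposited TPM values per gene symbol. The annotation release and the strand setting of the counting were not given in the sources used here. All 17 columns matched a sample and no pair of columns was identical. TPM are not counts, so no count model was used for the tests. The steps of the low values, of which 82.0% to 86.1% lay within 0.02 of a whole read, gave the recovered depth.

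The 13305 genes that reached 1 TPM in 3 mice or more were tested with limma 3.58.1 in R 4.3.3 on log2(TPM + 1), with the 4 groups in 1 fit (13 residual degrees of freedom), a mean-variance trend, two-sided tests and Benjamini-Hochberg adjustment over all 13305 genes, called at an adjusted p under 0.05. Fold changes are on the log2(TPM + 1) scale, which understates the change of low genes. The replicates are labelled biological. The script was tested on simulated data. Correlations with marker scores used permutation tests (SciPy 1.17.1, Python 3.11.15). The alternatives were other pseudocounts (0.1 and 0.5), filters (none, and 5 TPM) and scalings, only the groups compared, Dunn's test, the replicate number as a block, marker scores as covariates, and each mouse left out.

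The 9 genes, the lists of other complement genes and the marker lists were chosen with earlier results of these data known. The rule named all 9 genes, up to 3 called other complement genes per list and direction, and the 5 genes most like each pattern. Cfd, Fcna, Mbl1, Mbl2, Vsig4, C3ar1, C5ar1 and the terminal genes were named after their values were seen.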

Additional observations from a re-analysis of the deposited data

Results flagged for a closer look

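In groups of 4 or 5 mice, the mouse farthest from the rest was compared with the range of its group by Dixon's ratio at the 95% level. Of 27 sets (9 genes in 3 groups) 6 held a mouse that stood apart, where chance gives about 1 in 20. Control + rFibcd1 1 stood above its group for C1qa (132 TPM) and C1qb (148 TPM). Control 2 stood above its group for C1qb (87.7 TPM), C1ra (50.7 TPM) and C2 (20.4 TPM). LLC + rFibcd1 2 stood above its group for C4b (80.4 TPM). The 9 genes move together within a mouse, so these 6 values come from 3 mice and are not independent.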

How the results depend on the processing

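The groups held 3 to 5 mice, while no value of the 9 genes rested on fewer than about 407 recovered reads. Dunn's test called 0 of all genes in the 4 comparisons of groups. Of the 9 genes called in LLC against Control (4), the count was 0 with no filter, 2 with median-ratio scaling, 2 without mitochondrial genes, 0 with the replicate block, 0 with the macrophage score, 0 with the B cell score, 8 with only the groups compared, 0 by Dunn's test, 0 without the 3 mice with hepatocyte markers (added after the data were seen, as were all alternatives of the next counts) and 0 to 6 with single mice left out. The calls over all genes in the same comparison (4759) were 4904 with no filter, 3941 with median-ratio scaling, 3945 without mitochondrial genes, 5 with the replicate block, 19 with the macrophage score, 7 with the B cell score, 5231 with only the groups compared and 3102 without those 3 mice. For tumor-bearing against tumor-free mice (6) it was 1 with the replicate block, 0 with either score and 0 to 8 with single mice left out, where the calls over all genes (5963) were 3782 with the block, 1588 with the macrophage score and 628 with the B cell score. Past the unadjusted cutoff in LLC against Control (8) it was 5 with the replicate block, 0 with either score, 5 without the mice with hepatocyte markers and 4 to 8 with single mice left out, where 9.28% of all genes passed it with the block, 2.41% and 1.01% with the scores and 11.4% without those mice. In LLC + rFibcd1 against LLC (0) that count was 3 with only the groups compared (2.85% of all genes). It was 0 to 3 with single mice left out, 3 without LLC + rFibcd1 2 (6.61% of all genes). In LLC + rFibcd1 against Control (0) it was 1 with only the groups compared (1.8% of all genes). The other complement genes called in LLC against Control (7) numbered 4 at a filter of 5 TPM, where 39.4% of all genes were called. They numbered 0 with the replicate block, 0 with either score, 17 with only the groups compared and 0 by Dunn's test. Without the mice with hepatocyte markers they numbered 4, and with single mice left out 0 to 11. In LLC + rFibcd1 against Control (0) they numbered 1 at 5 TPM, where 4.75% of all genes were called. With single mice left out they numbered 0 to 1 there, where 1.26% to 4.49% of all genes were called. For all tumor-bearing against all tumor-free mice (10) they numbered 4 with the replicate block and 2 with the macrophage score. They numbered 0 with the B cell score and 3 to 14 with single mice left out. At the filter of 5 TPM, Itgax (at most 4.83 TPM in any mouse) and Cd59b (at most 4.84 TPM) were no longer among the tested genes. The cause of the other losses was not tested. Replicate numbers did not pair the mice: the 22 same-numbered pairs correlated at -0.459 to 0.485 (median -0.061).

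Of 153 log2 fold changes in LLC against Control with single mice left out, 0 changed sign. Scaling moved the median of all genes from 0.16 to 0.0055 (median-ratio), 0.075 (without mitochondrial genes) and -0.099 (quantile), and no complement gene of the 9 changed sign with it in LLC against Control. Signs turned under the macrophage score for C1ra (-0.023) and C2 (-0.23) in LLC against Control, for C1qb (0.046), C1qc (0.040) and C3 (0.063) in LLC + rFibcd1 against LLC, for C1qb (0.039) in Control + rFibcd1 against Control, for C1ra (-0.087) and C1s1 (-0.017) in LLC + rFibcd1 against Control, for C2 (-0.18) in tumor-bearing mice, and in the interaction for C1qa (0.050), C1qb (0.0072), C1qc (0.095), C1ra (0.10), C1s1 (0.10), C2 (0.13) and C3 (0.14). Under the B cell score they turned for C1qb (0.014) in LLC + rFibcd1 against LLC, C1qa (0.041), C1qb (0.14) and C1qc (0.042) in Control + rFibcd1 against Control and C2 (-0.023) in tumor-bearing mice. In Control + rFibcd1 against Control, C1qb turned to 0.064 with median-ratio scaling, 0.0073 without mitochondrial genes and 0.034 with quantile normalization, C4b to -0.0051 with a pseudocount of 0.1, and C4b to -0.27 and Cfb to -0.29 without the mice with hepatocyte markers. With single mice left out that comparison ran from -0.42 to 0.073 for C1qa, -0.35 to 0.19 for C1qb, -0.41 to 0.089 for C1qc, -0.39 to 0.18 for C3, -0.34 to 0.45 for C4b and -0.29 to 0.42 for Cfb, and LLC + rFibcd1 against Control from -0.047 to 0.27 for C1ra and -0.28 to 0.11 for C2.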

Other observations

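Of 16 genes inducible by interferon gamma, which is known to raise C4, C2 and factor B, 9 were higher in LLC than in Control (median log2 fold change 0.56), and of 12 tested genes of the NF-kB, IL-6 and acute-phase response 6 were higher (0.69), where 29.7% of all genes were called higher. In LLC + rFibcd1 against LLC limma called 0 of 16 and 0 of 12, 11 of 16 interferon genes and 3 of 12 of the second list had an unadjusted p under 0.05, where 22.7% of all genes did, and all 16 interferon genes were lower in the mean (median -0.58). The summed level of the interferon genes was 95.7 to 129 TPM in Control, 76.5 to 140.4 TPM in Control + rFibcd1, 178 to 199 TPM in LLC and 85.2 to 181 TPM in LLC + rFibcd1. In Control + rFibcd1 against Control all 16 were also lower in the mean (median -0.26), limma called 0 and 1 had an unadjusted p under 0.05, where 4.39% of all genes did. Their part in the complement levels was not tested.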
